A study of Homo sapiens with 4 samples.

Results

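The 10 genes described here encode the subunits of the transcription factor NF-κB and the proteins that hold it in check, in HN12 cells with and without the mitochondrial protein ATAD3A. They were taken by gene symbol from the 26726 genes listed, as 4 subunits (NFKB1, NFKB2, RELA, RELB), 3 classical IκB inhibitors (NFKBIA, NFKBIB, NFKBIE), 2 atypical nuclear IκB proteins (NFKBIZ, BCL3) and the deubiquitinase TNFAIP3. All 10 were expressed above the filter on low counts and were among the 15104 genes tested. HN12 is a human head and neck squamous cell carcinoma line, and the comparison asks how its transcripts differed after knockout. KO cells carried a CRISPR/Cas9 knockout of ATAD3A, made with a single guide delivered on a plasmid, selected with puromycin and grown out from single cells. WT cells were the parental HN12 line, for which no such selection or cloning is described, and both groups were kept in the same culture medium. Each group had 2 libraries from independent cultures, so p-values measure the spread between cultures. From which clone or clones the KO RNA was taken is not stated, so the effect of ATAD3A loss and a property of a clone cannot be told apart.

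Library totals ranged from 13569971 to 18943547 counts. ATAD3A was at 38.1 and 29.995 CPM (counts scaled to the library total, on TMM-normalised library sizes) in KO 1 and KO 2 and at 116 and 106 CPM in WT 1 and WT 2, a log2 fold change of -1.70 (SE 0.091, adjusted p = 1.58e-17). Its paralog ATAD3B, which may share reads with it, had a log2 fold change of 0.96. All 8 squamous epithelial markers were detected, 5 of them higher and 3 (TP63, CDH1 and DSG3) lower in KO cells. Their summed level was 3793 to 3801 CPM in KO and 1189 to 1192 CPM in WT. Of this sum, KRT5 had a mean of 2454 CPM in KO and 397 CPM in WT, and KRT14 had 692 and 151 CPM. Of 10 markers of leukocytes, endothelium and fibroblasts, 8 were in the table and 4 passed the filter, none was called, CD68 and THY1 had at most 3 counts in every library, and the summed level was 14.0 to 16.6 CPM in KO and 15.5 to 18.7 CPM in WT. In bulk RNA, fewer cells of a type and less RNA per cell cannot be told apart.

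NF-κB acts as dimers of Rel-family proteins. In resting cells the classical IκB proteins retain the dimers in the cytoplasm, and the IκB kinase (IKK) complex releases them by marking IκB for degradation. NFKB1 encodes p105, the precursor of p50, and NFKB2 encodes p100, the precursor of p52. Both precursors also act as inhibitors until they are processed. Several of the inhibitors are themselves NF-κB target genes and form feedback loops, and in squamous carcinomas the pathway is known for its part in inflammatory and survival gene expression.

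The DNA element that NF-κB dimers bind is the κB site, and promoter sequences are shown because several of these genes are themselves NF-κB targets. RefSeq promoter windows, from 250 bases before to 50 after a transcript start on GRCh38.p14, were available for 8 of the 10 genes, with 14 windows in all. RELB and NFKBIE had none. The κB consensus was searched on both strands, with overlapping matches counted separately. It matched 9 of the 14 windows (64.3%) and 7 of the 8 genes (87.5%), against 2075 of all 35116 windows (5.91%) and 1937 of all 27305 genes with a window (7.09%). RELA was the gene without a match in its 2 windows. A match is a description of the letters and not a measured binding site. The stretches are written 5′ to 3′ along the gene, with the letters that match in capitals.
NFKBIA (chr14:35404791-35404860, minus strand): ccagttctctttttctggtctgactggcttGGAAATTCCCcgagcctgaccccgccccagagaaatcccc
NFKBIZ (chr3:101827740-101827806, plus strand): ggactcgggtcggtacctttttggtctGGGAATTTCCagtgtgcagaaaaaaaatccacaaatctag
TNFAIP3 (chr6:137867188-137867217, plus strand): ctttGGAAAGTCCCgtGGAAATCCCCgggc
NFKB1 (chr4:102501300-102501329, plus strand): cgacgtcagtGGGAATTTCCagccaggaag
NFKB2 (chr10:102395674-102395703, plus strand): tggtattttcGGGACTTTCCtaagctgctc
NFKBIB (chr19:38899911-38899951, plus strand): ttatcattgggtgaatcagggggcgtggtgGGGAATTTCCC
BCL3 (chr19:44748700-44748729, plus strand): ccggctgcagGGGAAGTCCCggcgcccggc
The match began 81 bases upstream of the start site in NFKBIA. NFKBIZ had 2 matches over its 2 windows, and the one shown began 223 bases upstream. TNFAIP3 held a pair of matches, 67 and 55 bases upstream. NFKB1 and NFKBIZ held the same 10 matching letters, and NFKBIA held them when read on the opposite strand. NFKBIB held them within a pair of overlapping matches that began 28 and 27 bases upstream. The matches shown for NFKBIA, TNFAIP3 and BCL3 met the consensus only on the strand opposite to the gene. NFKB2 had 5 matches over its 3 windows, and the one shown, 21 bases upstream, is the nearest to a start site. The match in BCL3 began 2 bases past the start site. All these distances are to RefSeq start sites. By the gene positions of GENCODE release 29 given below, the matches shown for TNFAIP3, NFKB2, NFKBIB and BCL3 lie inside the gene. Of the 7 genes with a match, 3 were higher and 3 lower in KO cells, beside 20.4% and 19.1% of all tested genes, as described next. Among the higher, NFKBIB and BCL3 lost their calls with a correction for GC content and length.

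Of the 10 genes, 4 were higher in KO cells (RELA, TNFAIP3, NFKBIB, BCL3) and 4 were lower (NFKB2, NFKBIA, NFKBIE, NFKBIZ) when calls were made at an adjusted p under 0.05. By the same rule 20.4% of the tested genes were higher and 19.1% lower, 39.5% in either direction. The KO and WT libraries did not overlap for 9 of the 10 genes, 5 above and 4 below, where 68.1% of all tested genes had groups that did not overlap. The median log2 fold change was 0.12 over the 10 genes and -0.00421 over all tested genes. The changes were of moderate size, from 0.624 times the WT level for NFKBIZ to 1.40 times for TNFAIP3.

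**Figure D1:**
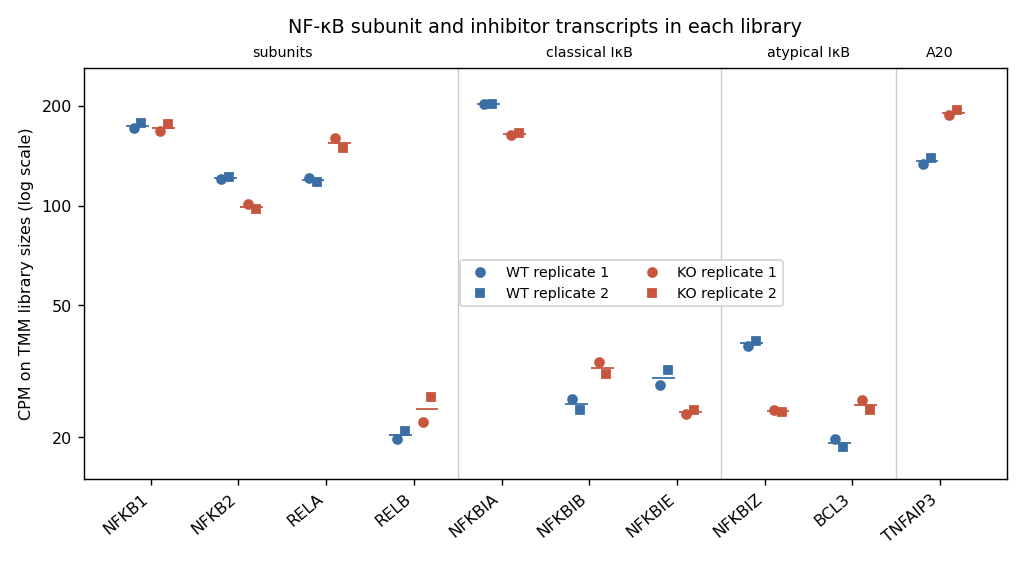
Level of each of the 10 genes in CPM (log axis), with 1 point per library, for the 2 KO and 2 WT libraries. The points of KO and WT are apart for every gene except NFKB1, which lies between 167.5 and 177 CPM in all 4 libraries.

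Among the subunits, NFKB1 showed no difference beyond the spread between libraries. Its transcript (chromosome 4, 102501329 to 102617302, GRCh38, GENCODE release 29) was at 168 and 176 CPM in the KO libraries. It was at 171 and 177 CPM in the WT libraries, so the groups overlapped. The log2 fold change was -0.02 with a 95% interval from -0.14 to 0.10 (adjusted p = 0.834), and its sign turned without KO 1 (0.0219) and without WT 2 (0.00188).

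RELA encodes p65, the subunit that carries the main transactivation domain of the classical dimer, and was higher in KO cells. On chromosome 11 (65653596 to 65663094), it was at 160.4 and 149 CPM in KO and at 121 and 117 CPM in WT. Both KO libraries were above both WT libraries. The log2 fold change was 0.38 (SE 0.0642, adjusted p = 1.08e-05), a level 1.30 times that of WT. With a correction for GC content and transcript length it was 0.23 (adjusted p = 0.00171), the lowest over its alternatives, and the call held.

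NFKB2, the p100 and p52 gene, went the other way. Located on chromosome 10 (102394110 to 102402529), it was at 101 and 97.7 CPM in KO and at 120.5 and 122 CPM in WT. The KO values lay below those of WT, with a log2 fold change of -0.29 (SE 0.0669, adjusted p = 0.000592). At 0.818 times the WT level, it did not reach the fold of 0.75 that the study required for a lower call. With the GC and length correction the log2 fold change was larger in size, at -0.51.

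RELB, the usual partner of p52, lies on chromosome 19 (45001430 to 45038198) and was at 22.2 and 26.4 CPM in KO against 19.8 and 20.8 CPM in WT. The KO libraries were above the WT libraries, but the gene did not pass the test (log2 fold change 0.25, 95% interval -0.00375 to 0.51, adjusted p = 0.113). Without KO 1 it passed (log2 fold change 0.38, adjusted p = 0.0346). With the GC and length correction its sign turned (-0.09, adjusted p = 0.624). Adjusted p over its alternatives ranged from 0.0346 to 0.624.

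Among the classical inhibitors, NFKBIA was lower in KO cells. It encodes IκBα, the fast-resynthesised inhibitor that ends an NF-κB response, and lies on chromosome 14 (35401511 to 35404749). The KO libraries held 163 and 165 CPM, and the WT libraries held 202 and 202 CPM. The groups were far apart relative to their spread, with a log2 fold change of -0.30 (SE 0.059, adjusted p = 7.22e-05). Its level in KO was 0.811 times that of WT, again short of the study's fold of 0.75, and the GC and length correction moved the log2 fold change to -0.49.

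NFKBIE, which encodes IκBε, was lower as well. On chromosome 6 (44258166 to 44265788), it was at 23.5 and 24.1 CPM in KO and at 28.7 and 31.9 CPM in WT, with a log2 fold change of -0.35 (SE 0.115, adjusted p = 0.0150). This call was lost without KO 1 (log2 fold change -0.32, adjusted p = 0.0617), without WT 2 (-0.27, adjusted p = 0.181) and by DESeq2 (adjusted p = 0.113), and its fold of 0.787 was short of the study's 0.75. With the GC and length correction it was -0.59. Adjusted p over its alternatives ranged from 7.07e-05 to 0.181, and the direction held in each.

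NFKBIB, which encodes IκBβ, a slower-cycling inhibitor, was higher in KO cells. On chromosome 19 (38899700 to 38908893), it was at 33.8 and 31.0 CPM in KO and at 26.2 and 24.2 CPM in WT. The log2 fold change was 0.36 (SE 0.112, adjusted p = 0.00908). It fell to 0.10 with the GC and length correction (adjusted p = 0.5003). The call was also lost without KO 1 (0.30, adjusted p = 0.0753), without WT 2 (0.31, adjusted p = 0.104) and by DESeq2 (adjusted p = 0.0781), with a lowest adjusted p of 0.00395 over its alternatives. The gene overlaps SIRT2 on the opposite strand, and since the use of strand in the counting is not given, reads of the pair may be mixed.

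The atypical IκB proteins work in the nucleus as cofactors of p50 and p52 dimers, and the pair measured here moved apart. NFKBIZ, which encodes IκBζ, a cofactor for secondary inflammatory genes, had the largest fall of the 10. On chromosome 3 (101827991 to 101861022), it was at 24.1 and 23.9 CPM in KO and at 37.8 and 39.2 CPM in WT. The groups were widely apart, with a log2 fold change of -0.68 (SE 0.107, adjusted p = 2.83e-06).

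BCL3, on chromosome 19 (44747705 to 44760044), was at 25.9 and 24.2 CPM in KO and at 19.8 and 18.7 CPM in WT, with a log2 fold change of 0.38 (SE 0.125, adjusted p = 0.0140). With the GC and length correction the value was -0.03 (adjusted p = 0.879), so neither the call nor the direction held. The call was also lost without KO 1 (0.33, adjusted p = 0.0837), without WT 2 (0.34, adjusted p = 0.105) and by DESeq2 (adjusted p = 0.105), with a lowest adjusted p of 0.0115 over its alternatives.

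TNFAIP3 encodes A20, a ubiquitin-editing enzyme that shuts off signalling upstream of IKK, and had the largest rise of the 10. On chromosome 6 (137867188 to 137883312), it was at 187 and 194 CPM in KO and at 133 and 139 CPM in WT. The log2 fold change was 0.49 (SE 0.0613, adjusted p = 4.04e-08). IκBα and A20, both known as feedback inhibitors and both with a κB match in a promoter window, thus differed in opposite directions.

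**Figure D2:**
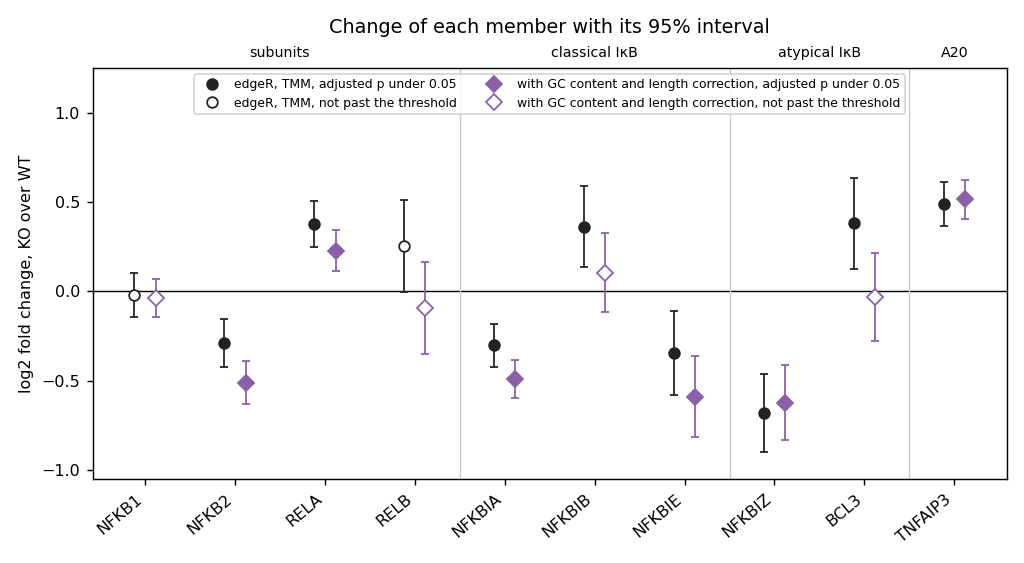
Log2 fold change of KO over WT for each gene with its 95% interval from the quasi-likelihood fit, beside the value after the GC and length correction. RELA, TNFAIP3, NFKB2, NFKBIA, NFKBIE and NFKBIZ keep their side of 0, NFKBIB moves to 0.10, and RELB and BCL3 cross to -0.09 and -0.03.

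RELA, TNFAIP3 and NFKBIZ kept their calls under all 14 alternatives, and NFKB2 and NFKBIA lost theirs to the study's fold threshold alone. The number of higher calls was 2 with the GC and length correction, 2 by DESeq2 and 2 without WT 2. The genes differ in base composition. GC content was 67.4% for BCL3, 65.4% for RELB, 61.1% for NFKB2, 61.0% for NFKBIE and 60.5% for NFKBIB, against a median of 48.5% over all tested genes. It was 57.1% for RELA, 53.1% for NFKBIA, 50.1% for NFKB1, 48.0% for TNFAIP3 and 46.2% for NFKBIZ. The part of base composition in the RELB, NFKBIB and BCL3 values beyond this correction was not tested.

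Levels of different genes were compared per length, in the deposited RPKM (reads scaled by transcript length and library total). NFKBIA was by far the most abundant transcript in both groups, at 133 ± 0.246 RPKM in WT and 103 ± 1.21 RPKM in KO (mean ± SD, n = 2). In WT it was followed by NFKB1 (43.6 ± 1.14), NFKB2 (40.04 ± 0.542), RELA (38.4 ± 0.774) and TNFAIP3 (31.4 ± 1.01), each apart from the next. The other 5 genes lay between 9.07 ± 0.351 RPKM for RELB and 12.1 ± 0.957 RPKM for NFKBIE. In that lower range NFKBIE and NFKBIB overlapped, as did NFKBIZ and BCL3.

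In KO cells the order was different. RELA came after NFKBIA at 47.4 ± 2.26 RPKM, and TNFAIP3 (41.9 ± 1.18) came next with a range overlapping that of NFKB1 (41.0 ± 1.52). NFKB2 followed at 31.2 ± 0.629 RPKM. NFKBIB (14.3 ± 0.854), BCL3 (12.0 ± 0.559) and RELB (10.3 ± 1.29) now lay above NFKBIE (9.08 ± 0.195), and NFKBIZ was last at 5.97 ± 0.0298 RPKM.

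The summed RPKM of the 4 subunits was nearly the same in all libraries, at 130.0 and 129.9 in KO and at 130.2 and 132 in WT. The direction of that small difference depended on scaling, with a log2 ratio of KO over WT of -0.01 in RPKM and 0.06 on TMM-normalised library sizes. Its composition differed more. RELA made up 37.7% and 35.3% of the subunit sum in KO and 29.9% and 28.7% in WT. NFKB2 made up 24.3% and 23.7% in KO and 30.5% and 30.6% in WT. The ratio of RELA to NFKB2 was 1.55 and 1.49 in KO and 0.982 and 0.936 in WT, so RELA exceeded NFKB2 in KO libraries only.

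For the 3 classical inhibitors, the summed level was 126 and 126 RPKM in KO and 156 and 157 RPKM in WT, a log2 ratio of -0.31 in RPKM and of -0.24 on TMM-normalised library sizes. Divided by the subunit sum, this gave 0.966 and 0.973 in KO and 1.20 and 1.19 in WT. This ratio does not depend on how libraries are scaled to each other. NFKBIA was most of the sum, with 81.0% and 81.8% in KO and 84.9% and 84.7% in WT, while the share of NFKBIB was 11.9% and 10.9% in KO and 7.76% and 7.18% in WT.

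Ratios were also taken between single genes, each between a gene called lower and a gene called higher. They restate those differences and are no further support. NFKBIA over RELA was 2.07 and 2.26 in KO and 3.41 and 3.51 in WT. TNFAIP3 over NFKBIA was 0.404 and 0.413 in KO and 0.231 and 0.241 in WT. BCL3 over NFKBIZ was 2.07 and 1.95 in KO and 1.01 and 0.918 in WT. The rise of BCL3 did not hold with the GC and length correction. For each sum, share and ratio in RPKM the KO and WT libraries did not overlap. In CPM, groups also did not overlap for 68.1% of all tested genes. The gap was small for the subunit sum, from 130.0 RPKM in KO to 130.2 RPKM in WT, and its direction depended on scaling. The exact two-sided permutation p was 0.333 throughout, the smallest that 2 against 2 libraries allow. These are transcript levels, and neither protein amounts nor nuclear dimers were measured here.

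**Figure D3:**
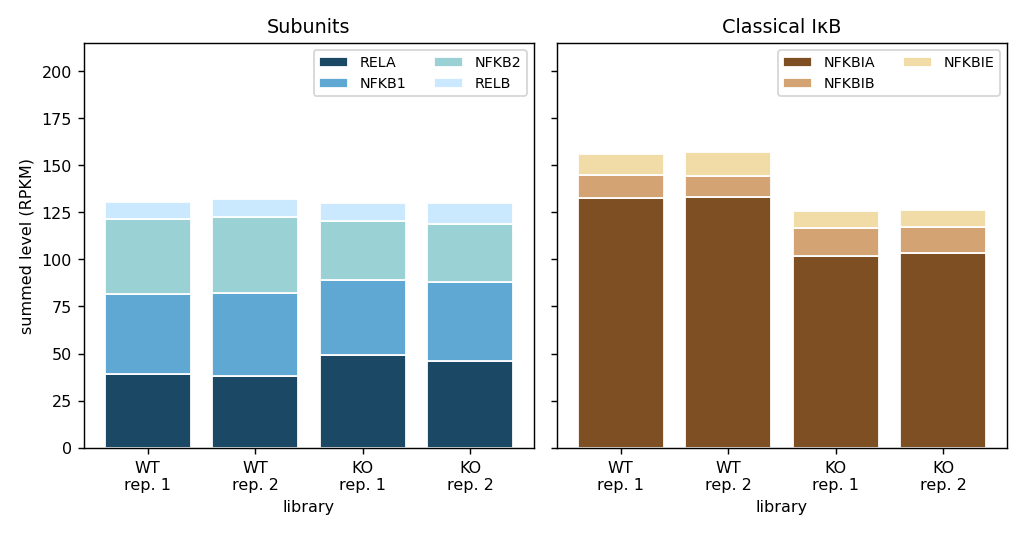
Summed RPKM of the 4 subunits and of the 3 classical IκB genes, stacked by gene, in each of the 2 WT and 2 KO libraries. The subunit bars are level at 129.9 to 132 RPKM with a larger RELA part in KO, and the IκB bars are 126 RPKM in both KO libraries against 156 and 157 RPKM in WT.

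Median fold changes differed between stretches of chromosomes, so each gene was set beside its neighbours, the other tested genes within 5 Mb. Around RELA, 223 neighbours had a median log2 fold change of 0.28, and after the GC and length correction it was 0.08. The 3 members on chromosome 19 had medians of 0.26 over 221 genes for RELB, 0.27 over 174 for NFKBIB and 0.26 over 213 for BCL3. Their windows overlap, and RELB and BCL3 lie in each other's window, so the medians share genes and are not independent. After the correction these medians were 0.04, 0.08 and 0.05. RELA, RELB, NFKBIB and BCL3 lay between the quartiles of their neighbours' values.

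The neighbours of NFKBIZ were shifted downward, with a median of -0.27 over 31 genes, as were those of NFKBIE (-0.19 over 75) and of NFKBIA (-0.18 over 40). After the correction these medians were -0.24, -0.29 and -0.02, so the shift around NFKBIA was no longer seen and that around NFKBIE was larger. The values of NFKBIZ and NFKBIA lay below the lower quartile of their neighbours, with 19.4% and 22.5% of the neighbours lower still. Within 2 Mb, NFKBIZ lay inside the quartiles of its 18 neighbours, with 27.8% of them lower. NFKB2 was lower among 88 neighbours with a median of 0.04, of which 15.9% were lower than it. TNFAIP3 stood opposite to its surroundings, with a median of -0.18 over 32 neighbours, 84.4% of which lay below it. NFKB1, at -0.02, lay near its 34 neighbours (median -0.10). The part of regional shifts in the members' changes was not tested.

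**Figure D4:**
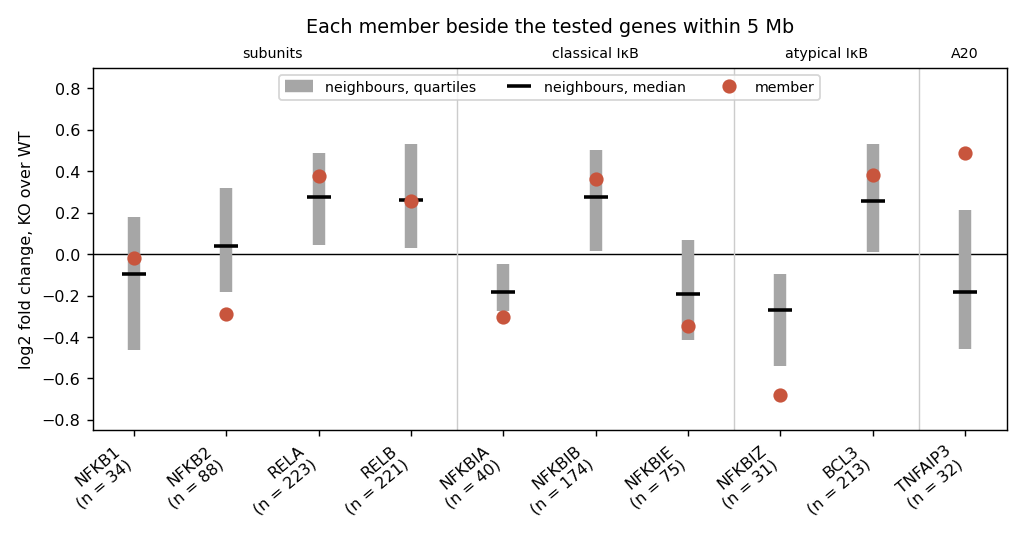
Log2 fold change of each gene beside the median (with quartiles as bars) of the other tested genes within 5 Mb. NFKB2, NFKBIA and NFKBIZ lie below the quartiles of their neighbours, TNFAIP3 lies above them, and the other 6 genes lie within.

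The remaining Rel subunit, REL, which encodes c-Rel, was at 10.2 and 16.8 CPM in KO and at 21.0 and 21.2 CPM in WT. It was lower in KO (log2 fold change -0.65, SE 0.162, adjusted p = 0.00135), with a wide spread between the KO libraries, and the call was lost without KO 1 (-0.32, adjusted p = 0.129, the highest over its alternatives). NFKBID, which encodes the atypical inhibitor IκBNS, overlapped between groups at about 5 CPM (log2 fold change 0.03, adjusted p = 0.952).

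Upstream of IκB, 11 genes of the IKK complex and its activating kinases and adaptors were tested, of which 5 were lower (45.5%) and 2 higher (18.2%), beside 19.1% and 20.4% of all tested genes, with a median log2 fold change of -0.19. TAB2, an adaptor of the TAK1 kinase, was at 86.5 and 90.0 CPM in KO and at 125 and 124 CPM in WT (log2 fold change -0.50, adjusted p = 1.77e-07), and it kept its call under all alternatives. RIPK1 (-0.33), TAB3 (-0.31) and IKBKE (-0.26) fell less. TAB2, RIPK1 and MAP3K7, which was also called lower, lie on chromosome 6. The part of regional shifts in the changes of the kinases was not tested. IKBKG, the scaffold NEMO (0.45), and MAP3K14, the kinase NIK that drives p100 processing (0.38), were higher. IKBKG has a near-identical pseudogene copy, which makes its count uncertain. These counts moved with the settings. Of 14 alternatives, 7 ended the call of IKBKG, 7 that of MAP3K14, 7 that of TAB3, 5 that of IKBKE and 4 that of RIPK1. Without KO 1, MAP3K14 was at 0.16 and TAB3 at -0.15. TAB3 was at -0.0427 with the GC and length correction (adjusted p = 0.757, the highest over its alternatives), and IKBKG was at 0.31 without WT 1 and IKBKE at -0.18 without WT 2. RIPK1 lost its call without WT 1 (-0.32) and without WT 2 (-0.33). By DESeq2 0 genes were called higher and 1 lower. Without KO 1 there were 0 higher and 2 lower, without KO 2 there was 1 higher, without WT 1 there were 0 higher and 3 lower, and without WT 2 there was 1 lower.

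Of 18 adaptor and ubiquitin genes, 3 were higher (16.7%) and 5 lower (27.8%), both near the shares of 20.4% and 19.1% over all tested genes (median -0.15). CYLD, a deubiquitinase that restrains the pathway beside A20, had a log2 fold change of -1.14 (adjusted p = 2.8e-09), with 13.6 and 15.7 CPM in KO and 31.5 and 32.9 CPM in WT. BIRC3, the ubiquitin ligase cIAP2 (-0.90), MALT1, the protease of the CARD-BCL10 complex (-0.88), and TAX1BP1, an A20 adaptor (-0.35), were also lower. SHARPIN, part of the linear ubiquitin ligase (0.57), TNIP2, an A20 partner (0.50), and TRAF2 (0.31) were higher. The higher calls were 0 after the GC and length correction, and TRAF2 was also lost without WT 1 (0.25, adjusted p = 0.0734). CYLD, BIRC3 and MALT1 kept their calls under all alternatives.

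Of 7 genes of the IκB ligase and of RelA turnover, 1 was higher (14.3%) and 1 lower (14.3%), with a median of 0.00028. These were below the shares of 20.4% and 19.1% over all tested genes. PDLIM2, a nuclear ligase for RelA, was higher (0.71) and FBXW11, a recognition subunit of the IκB ligase, was lower (-0.36). PDLIM2 was at 18.7 and 13.9 CPM in KO and at 10.5 and 9.56 CPM in WT, and its call was lost without KO 1 (0.48, adjusted p = 0.0527).

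Downstream, 24 known NF-κB target genes were tested, and 13 were lower (54.2%) and 4 higher (16.7%), beside 19.1% and 20.4% of all tested genes. The median log2 fold change was -0.34. TNF, the cytokine that both activates NF-κB and is induced by it, had the largest fall, at 1.52 and 1.10 CPM in KO and 8.52 and 9.63 CPM in WT (log2 fold change -2.78, adjusted p = 7.29e-10). SAA1, an acute-phase protein with a close paralog that may share its reads, had a log2 fold change of -1.57. The neutrophil chemokine CXCL8 (-1.19) and the chemokine CCL20 (-1.16) were lower too. CCL20, with 25 to 64 counts per library, lost its call without KO 2 (-0.97, adjusted p = 0.0557), without WT 2 (-0.92, adjusted p = 0.151) and by DESeq2 (adjusted p = 0.0744). The others called lower were IL1A, ICAM1, TNFAIP2, CD83, IER3, LTB, PLAU, LCN2 and PTX3. TNF, LTB, IER3 and CD83 lie on chromosome 6, with TNF from 31575567 and LTB from 31580525. The part of regional shifts in the changes of the targets was not tested.

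The 4 higher targets were MMP9, a matrix metalloprotease (1.28), the cytokine IL6 (1.11), the stress gene GADD45B (1.00) and the transcription factor IRF1 (0.25). IL6 was at 9.22 and 8.60 CPM in KO and at 3.94 and 4.31 CPM in WT, so it was apart from TNF in direction. IRF1 lost its call in 7 of the 14 alternatives, among them without KO 1 (0.20, adjusted p = 0.109), without WT 2 (0.21, adjusted p = 0.156) and by DESeq2 (adjusted p = 0.0797). These targets were listed with earlier results of these data known, and the list is not independent evidence of a direction.

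**Figure D5:**
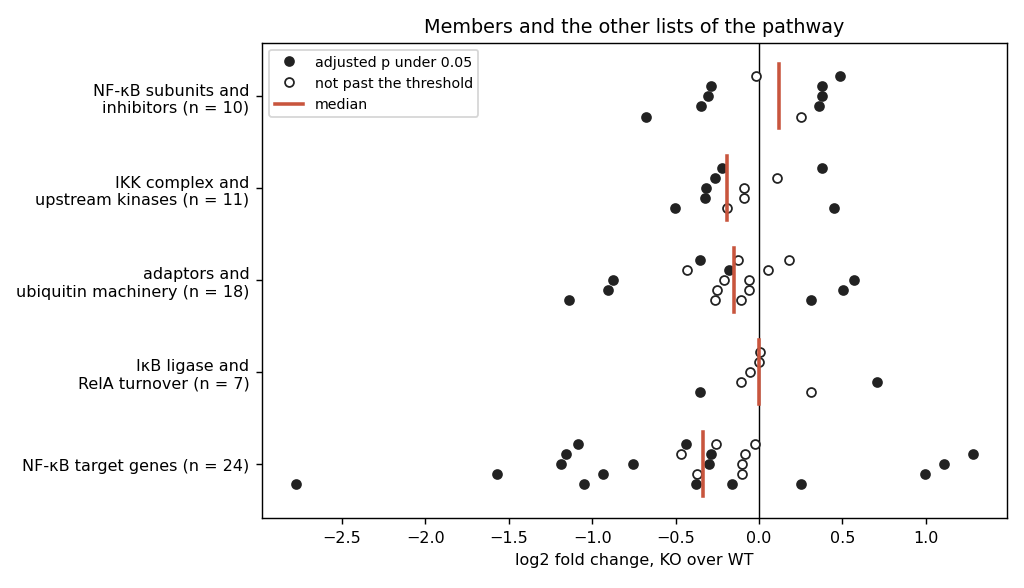
Log2 fold change of every tested gene among the 10 genes and the lists of kinases, adaptors, ligase components and target genes, with filled points for an adjusted p under 0.05 and a bar at each median. The targets lie mostly below 0, with TNF lowest at -2.78 and MMP9 highest at 1.28.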

How the data were processed

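RNA from 2 KO and 2 WT cultures of HN12 cells was sequenced as 50-nt reads. The authors deposited read counts per gene without normalization for 26726 genes, and RPKM values, which equal those counts divided by a fixed gene length and the library total (spread at most 1.82e-05%). The submitters' processing notes name CASAVA, STAR 2.5, HTSeq, edgeR 3.16.5, DESeq2 and hg19, with no role or order. The use of strand is not given in the sources used here. All columns belonged to a labelled sample.

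Counts of all genes were fitted with edgeR 4.0.16 in R 4.3.3 (TMM, filterByExpr, glmQLFit and glmQLFTest, group only). Benjamini-Hochberg adjustment ran over the 15104 genes tested, at a threshold of 0.05. The study's methods name the DESeq test with a p under 0.05 and a fold over 1.25 or under 0.75, and these thresholds were tried on the edgeR fit with its unadjusted p. TMM factors were 0.975 to 1.03 and the biological coefficient of variation was 5.88%. Library totals of 13569971 to 18943547 counts gave 260 to 3450 counts per library for the 10 genes. Replicate libraries differed by more than counting noise (chi-square per degree of freedom 4.20 for KO, 3.36 for WT). The scripts were tested on simulated data. Ensembl identifiers were looked up in GENCODE release 29 (GRCh38) for position and base composition, with GC known for 97.2% of tested genes. The GC and length correction used per-library splines (4 degrees of freedom), fitted to genes whose mean log2 CPM exceeded 2, as offsets. Promoters were RefSeq windows. Other alternatives were DESeq2 1.42.0, its size factors in edgeR, no filter, 10 counts required in every library, scaling by totals alone, a replicate block, limma 3.58.1 on log2(RPKM + 1) and log2(RPKM + 0.1), and leaving out each library.

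Members and lists were chosen with earlier results of these data known. Named were the 10 genes, ATAD3A, ATAD3B, REL, NFKBID and, per list, up to 4 called genes with the largest rise and up to 4 with the largest fall whose groups did not overlap. Of 27 targets listed, 26 were in the table and 24 were tested. CXCL1 was not analysed here.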

Additional observations from a re-analysis of the deposited data

How the results depend on the processing

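Of the 10 genes, RELA, TNFAIP3 and NFKBIZ kept direction and call under all 14 alternatives. The number of higher calls among the 10 was 2 by DESeq2 and 2 after the GC and length correction, and ranged from 2 to 4 when 1 library was left out, with lower calls at 3 to 4. The study's thresholds left 1 lower call. The sign turned for NFKB1 when 1 library was left out (range -0.0423 to 0.0219, above 0 without KO 1 and, at 0.00188, without WT 2), for RELB (-0.0930) and BCL3 (-0.0313) after the GC and length correction, and for the summed subunits on TMM-normalised library sizes (log2 ratio 0.0569), where the summed classical IκB was at -0.24. NFKBID turned to -0.0444 with library totals only, to -0.0314 and -0.0405 in limma on log2(RPKM + 1) and log2(RPKM + 0.1), and to -0.30 after the GC and length correction, and ranged from -0.12 to 0.18 with 1 library left out, below 0 without KO 2 (-0.0879) and without WT 1. The causes were not tested. Medians over neighbours within 2 Mb kept the sign of those within 5 Mb for all 10 genes, but NFKBIZ moved inside its neighbours' quartiles.

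Over all genes, 3074 were higher and 2891 lower. Lower calls were 1881 by DESeq2 and 1847 with the study's thresholds, and leaving out 1 library gave 2341 to 2989 higher and 2002 to 2628 lower. The share of higher calls was 51.5%, against 41% with library totals only (2508 higher, 3615 lower) and 42.6% and 42.5% in limma. For the kinases, higher calls were 0 by DESeq2, with library totals only and in both limma fits, 1 after the GC and length correction and 0 to 2 with 1 library left out. Lower calls were 1 by DESeq2, 3 without a filter, 1 with the study's thresholds and 1 to 4 with 1 library left out. For the adaptors, lower calls were 9 with library totals only and 3 with the study's thresholds, and higher calls were 0 after the GC and length correction. For the IκB ligase list, higher calls were 0 in both limma fits, 2 after the GC and length correction and 0 to 1 with 1 library left out, and lower calls were 0 with the study's thresholds.

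The labels number the libraries but state no pairing, and deviations of same-numbered libraries were uncorrelated (r = -0.02 across genes). With a replicate block the 10 genes had 4 higher and 4 lower calls, and all genes had 3010 and 2810. With 2 libraries per group, precision is limited for NFKBIB, NFKBIE, BCL3, RELB and other genes of low counts.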
